A study of Mus musculus with 6 samples.

Results

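The miR-29 family was examined in mouse livers (C57BL/6), from controls on a normal diet (NC) and from a high-fat diet model of metabolic dysfunction-associated fatty liver disease (MAFLD). The mature miRNAs of the 4 mouse miR-29 hairpins were taken by name, and all 7 named arms were listed among the 1546 mature miRNAs of the deposited table. They are 3 guide arms (mmu-miR-29a-3p, mmu-miR-29b-3p and mmu-miR-29c-3p) and 4 passenger arms (mmu-miR-29a-5p, mmu-miR-29b-1-5p, mmu-miR-29b-2-5p and mmu-miR-29c-5p), written without the species prefix where no value is introduced. Small RNA of 3 NC and 3 MAFLD livers was sequenced, each library is taken as 1 liver since no pooling is described, and the values are reads scaled to the same total of listed miRNAs in each library (CPM). All mice were males, 8 weeks old when the diets began, and the diets lasted 16 weeks. The labels name liver tissue of mice as the source, while their growth and treatment fields describe cultures of HepG2, a human liver cell line, and the libraries are treated here as mouse liver. No transgene or drug is described for either group, and whether cages or litters differed is not given in the sources used here.

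MiRNAs of the miR-29 family are best known for repressing genes of the extracellular matrix, above all collagens. A miRNA hairpin is cut into 2 arms, of which the guide arm is mostly kept by an Argonaute protein and pairs with mRNAs through its seed (bases 2 to 8), while the passenger arm is mostly degraded. In the liver the family is known to be abundant in quiescent stellate cells and to fall when these cells turn into collagen-producing myofibroblasts in fibrosis, and hepatocytes express it as well.

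The guide arms are shown because they share 1 seed and differ by few bases, which bears on how their reads can be told apart. The sequences come from RefSeq on GRCm38.p6, where all 7 arms were matched by name, and the capitals mark the seed.
miR-29a-3p (chr6:31062673-31062694, minus strand): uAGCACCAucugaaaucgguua
miR-29b-3p (chr6:31063025-31063047, minus strand, and chr1:195037091-195037113, plus strand): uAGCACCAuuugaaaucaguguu
miR-29c-3p (chr1:195037600-195037621, plus strand): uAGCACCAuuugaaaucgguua

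Counting positions from 1 at the 5′ end, miR-29a-3p and miR-29c-3p differ at 1 of 22 positions (C10U). MiR-29b-3p and miR-29c-3p share their first 17 bases and differ by A18G, G21U and U22A. The number of mismatches allowed in the authors' alignment is not given in the sources used here, so part of the reads of 1 guide arm could have been assigned to another. No other mature miRNA in the RefSeq set had this seed.

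The passenger arms are shown because each names its hairpin, which miR-29b-3p does not. Their seeds, in capitals, differ from that of the guide arms and from each other.
miR-29a-5p (chr6:31062711-31062732, minus strand): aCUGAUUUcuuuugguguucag
miR-29b-1-5p (chr6:31063067-31063088, minus strand): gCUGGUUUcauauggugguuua
miR-29b-2-5p (chr1:195037050-195037074, plus strand): cUGGUUUCacaugguggcuuagauu
miR-29c-5p (chr1:195037562-195037583, plus strand): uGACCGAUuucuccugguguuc

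The hairpins lie in 2 clusters. Mir29a and Mir29b-1 are on the minus strand of chromosome 6 with 275 bases between them, where GENCODE M21 annotates no other gene over Mir29a and the lincRNA Gm27019 overlaps the end of Mir29b-1 by 2 bases. Mir29b-2 and Mir29c are on the plus strand of chromosome 1 with 426 bases between them. Both lie in an exon of the noncoding RNA A330023F24Rik and, on the opposite strand, within the UTR of Cd46, a regulator of complement. MiR-29b-3p is made from both clusters, and its reads cannot be assigned to 1 of them.

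Collagen mRNAs were not measured in these libraries, so the basis of the family's name was looked up in annotation. The letters that pair with the seed and have an A opposite base 1, TGGTGCTA, were searched on the sense strand in the longest annotated 3′ UTR of each protein-coding gene. They were found in 11 of 17 collagen genes listed for this purpose and in 2.85% of the 21024 genes with a 3′ UTR. This is 0.527 sites per kb of UTR in the listed collagens and 0.0202 per kb in all genes. The collagens were listed because the family is known to target them, so their count is a description of known targets. Of the fibrillar collagens, 6 of 8 held the letters, of the network-forming collagens 3 of 6, and of the collagens of microfibrils 2 of 3. Col1a2, a chain of type I collagen, held none in the UTR searched. Sites of both main fibrillar collagens of scar tissue, of type V collagen and of a basement membrane collagen are shown with 7 bases on each side, on GRCm38, with the 8 matching letters in capitals.
Col1a1 (chr11:94952538-94952545, plus strand): gaatttcTGGTGCTAtagaagc
Col3a1 (chr1:45348982-45348989, plus strand): gtctcaaTGGTGCTAtaataaa
Col5a2 (chr1:45374965-45374972, minus strand): ttaatgaTGGTGCTAaaattat
Col4a1 (chr8:11199761-11199768, minus strand): cacaacaTGGTGCTActccccc

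Of 9 other known targets listed 7 held the 8 letters, and of 7 other matrix genes 4 did, against 2.85% of all genes. The DNA demethylases Tet2 and Tet3, the DNA methyltransferase Dnmt3a, Igf1, Loxl2 and elastin (Eln) held 2 sites each. Tet1, Tdg, Mcl1, Fbn1 and Lamc1 held 1 each, and Dnmt3b, Pdgfra, Sparc, Mmp2 and Lox held 0. A match of letters is not evidence of binding in these livers.

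The libraries held between 1336935 and 4685712 reads on miRNAs, and a count of 0 allows up to 3 reads, which were between 0.640 and 2.24 CPM. MiR-148a-3p, an abundant hepatocyte miRNA, took 71.4% of the reads in NC replicate 1, 63.3% in NC replicate 2 and 48.5% in NC replicate 3, and 46.8%, 56.7% and 51.6% in MAFLD replicates 1 to 3. NC replicate 3 thus stood apart from the other NC libraries in this share and lay within the range of the MAFLD libraries. MiRNAs typical of brain (a list of 6) summed to 469 and 758 CPM in NC replicates 1 and 2 and to between 50.2 and 70.4 CPM in the other 4 libraries, and 2 of the 6 were lower in MAFLD livers at an unadjusted p below 0.05 and a change of 1.5-fold or more, as were 4.59% of all 501 miRNAs. Hepatocyte miRNAs (a list of 5, with both arms of miR-122 and miR-148a-3p) summed to between 644087 and 816441 CPM, and miR-148a-3p made up most of each sum. MiR-122-5p of this list lay between 42159 and 85150 CPM, so it was present in every library. Results are therefore given with and without NC replicate 3. In bulk tissue, fewer cells of a type and less RNA per cell cannot be told apart.

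MiR-29a-3p was the main member of the family, at position 29 of all listed miRNAs by mean CPM. In NC livers mmu-miR-29a-3p had 682, 786 and 1658 CPM, and the MAFLD livers had 2394, 1378 and 1857 CPM. MAFLD replicates 1 and 3 lay above all NC livers, and MAFLD replicate 2 lay below NC replicate 3, so the groups overlapped. NC livers averaged 1042 ± 536 CPM (SD, n = 3) and MAFLD livers 1877 ± 508 CPM (SD, n = 3). A limma comparison on log2(CPM + 1), fitted to all 501 miRNAs whose mean reached 1 CPM, gave a log2 fold change of 0.93 (95% interval 0.13 to 1.73, unadjusted p = 0.0258). The Benjamini-Hochberg adjusted p was 0.212 (limma), so miR-29a-3p did not pass the adjusted threshold of 0.05.

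For mmu-miR-29b-3p, which both clusters encode, the NC livers had 158, 173 and 385 CPM, and the MAFLD livers had 375, 310 and 325 CPM. NC replicate 3 was the highest of all 6 libraries, and the other NC livers were the lowest. The log2 fold change was 0.61 (95% interval −0.24 to 1.46), with a limma adjusted p of 0.411. For mmu-miR-29c-3p, from chromosome 1 alone, the NC livers had 30.6, 42.7 and 114 CPM, and the MAFLD livers had 126, 82.4 and 101 CPM. Here too NC replicates 1 and 2 were the lowest, and NC replicate 3 was exceeded by MAFLD replicate 1 alone. Its log2 fold change was 0.92 (95% interval −0.11 to 1.95), with a limma adjusted p of 0.310. Two-sided exact permutation tests of the log2 values gave p = 0.2 for miR-29a-3p, p = 0.4 for miR-29b-3p and p = 0.3 for miR-29c-3p, where 3 livers against 3 cannot go below 0.1.

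**Figure D1:**
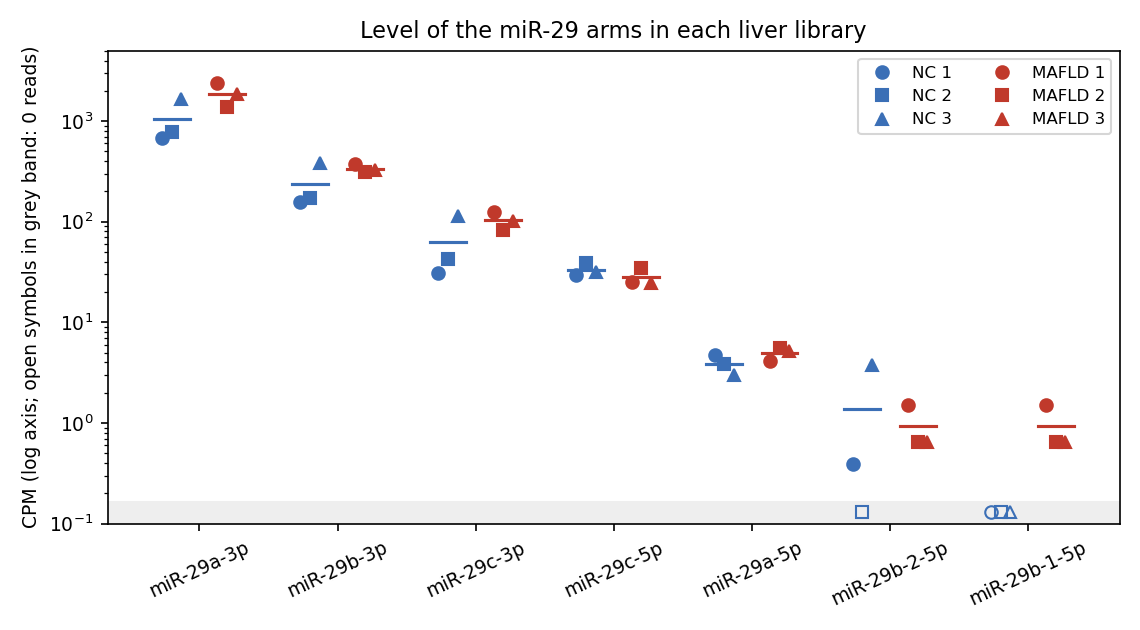
CPM (log axis) of each miR-29 arm in the 3 NC (blue) and 3 MAFLD (red) libraries, with symbols by replicate number and bars at the group means; open symbols in the grey band stand for 0 reads. NC replicate 3 (blue triangle) lies among the MAFLD libraries for the guide arms, at 1658 CPM for miR-29a-3p against 682 and 786 CPM in the other NC livers, while miR-29c-5p lies between 24.8 and 38.9 CPM in all 6 libraries.

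Of the 6 arms tested, 1 (miR-29a-3p) was past the looser rule of an unadjusted p below 0.05 and a change of 1.5-fold or more, and it was higher in MAFLD livers. Of all 501 miRNAs, 18.0% were past this rule, 13.4% higher and 4.59% lower. By number these were 67 higher and 23 lower, a split that became 27 and 44 with the median-ratio scaling described below. By the adjusted p 0 of the 6 arms passed with limma, edgeR or DESeq2, against 0.2% of all miRNAs (1 miRNA) with limma. No arm among the 6 had groups without overlap, against 19.4% of all miRNAs (15.2% higher and 4.19% lower). The looser call of miR-29a-3p was lost without NC replicate 1 (log2 fold change 0.68), NC replicate 2 (0.78), MAFLD replicate 1 (0.73) or MAFLD replicate 3 (0.92), and held without NC replicate 3 or MAFLD replicate 2. Over all 501 miRNAs the log2 fold changes had a median of 0.43, so relative to the table as a whole miR-29a-3p was higher by 0.50, miR-29c-3p by 0.49 and miR-29b-3p by 0.18 on the log2 scale. Scaling the libraries instead by their median ratios (the median over miRNAs of the level against the geometric mean) brought the median of all miRNAs to 0.044. The log2 fold change was then 0.46 for miR-29a-3p, 0.14 for miR-29b-3p and 0.46 for miR-29c-3p, all under 1.5-fold, so that the looser call of miR-29a-3p was lost there too. It was also lost after quantile normalization (0.35), in limma without the trend (0.93), in edgeR (0.47) and DESeq2 (0.45) fits, and when miR-148a-3p was taken out of the totals (0.58). MiR-29c-3p was past the looser rule after quantile normalization (0.68). Under median-ratio scaling miR-29a-3p had 1078, 1013 and 1323 in the NC and 1856, 1430 and 1421 in the MAFLD livers. Its groups no longer overlapped there, with a limma adjusted p of 0.268. The share of all miRNAs without overlap on that scale was not counted.

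Leaving out NC replicate 3 changed the calls of all 3 guide arms. NC replicates 1 and 2 then remained, which had the highest miR-148a-3p shares (71.4% and 63.3%). They also had the highest sums of brain miRNAs (469 and 758 CPM), and which NC livers are typical was not tested. Without NC replicate 3 the log2 fold change was 1.32 for miR-29a-3p (limma adjusted p = 0.00609), 1.01 for miR-29b-3p (adjusted p = 0.0174) and 1.46 for miR-29c-3p (adjusted p = 0.0119). In that comparison 95 of the 501 miRNAs (19.0%) were called higher, and the median of all miRNAs rose to 0.67. With NC replicate 3 left out and median-ratio scaling together, an alternative chosen after seeing the data, the fold changes were 0.61, 0.31 and 0.77 in the same order, and no guide arm passed the adjusted p. Leaving out any other library kept the direction of the guide arms, and none then passed the adjusted p.

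**Figure D2:**
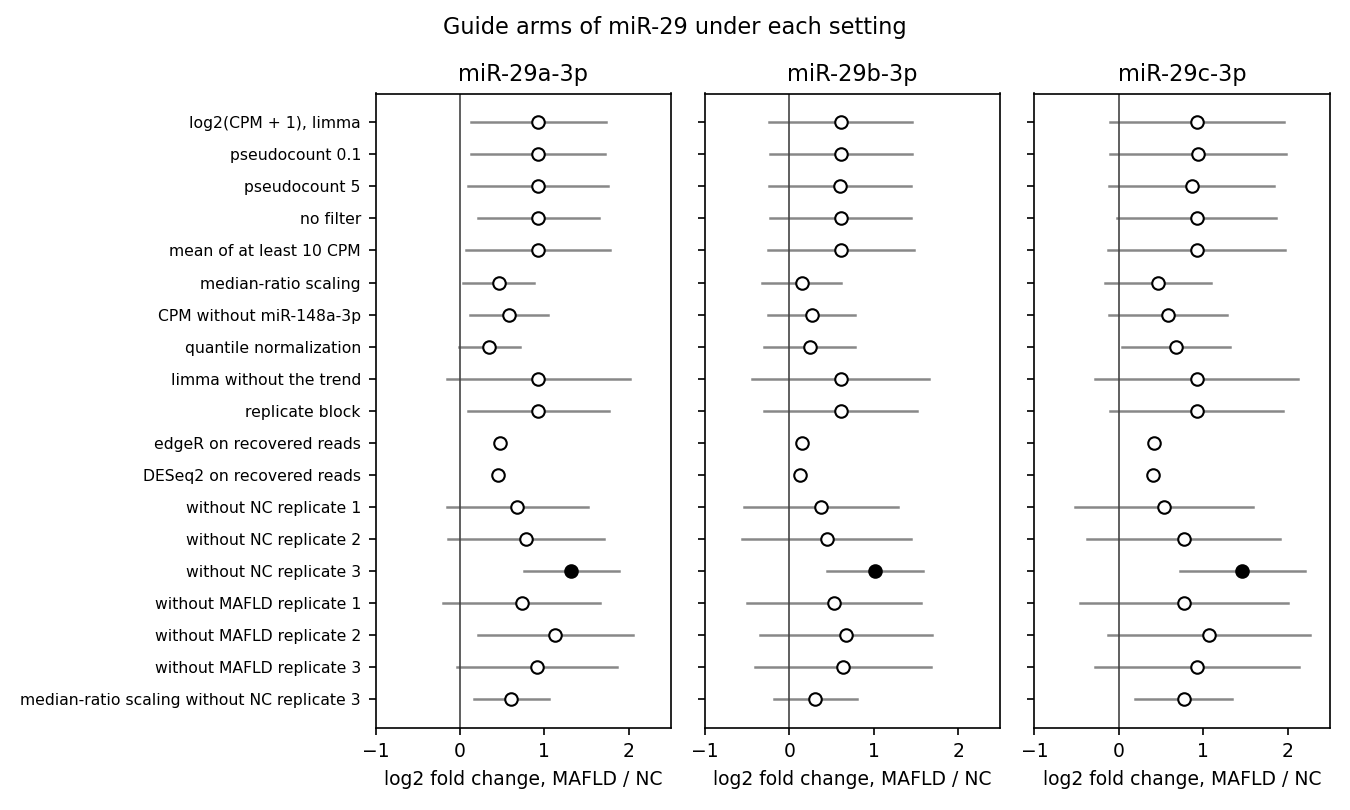
Log2 fold change (MAFLD against NC) of the guide arms under limma on log2(CPM + 1) and under each alternative, 1 panel per arm; lines are 95% intervals where limma gives them, and filled points have an adjusted p under 0.05. All points lie above 0, from 0.13 to 1.46, and the filled ones are those without NC replicate 3.

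The level of the guide arms ran broadly opposite to the share of miR-148a-3p in the libraries. The 3 guide arms together were at 871 and 1002 CPM in NC replicates 1 and 2, which had the highest miR-148a-3p shares, and at 2895 CPM in MAFLD replicate 1, which had the lowest. Because CPM sums to the same total in each library, the level of miR-29 depends in part on this share. With miR-148a-3p taken out of the totals the log2 fold changes were 0.58 for miR-29a-3p, 0.26 for miR-29b-3p and 0.59 for miR-29c-3p. The part of the brain miRNAs in these differences was not tested.

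**Figure D3:**
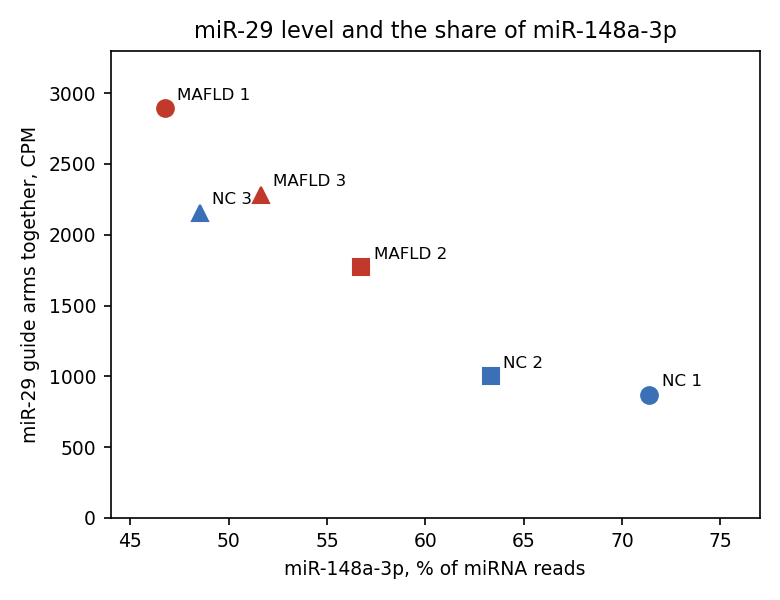
Summed CPM of the guide arms (vertical axis) against the percent of miRNA reads taken by miR-148a-3p (horizontal axis), 1 point per library, NC in blue and MAFLD in red. NC replicate 3, at 48.5% and 2157 CPM, lies between the MAFLD libraries, and NC replicates 1 and 2 lie at the other end.

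Within the family the guide arms had the same order of level in every library. MiR-29a-3p made up between 76.9% and 82.7% of the guide-arm reads in the 6 libraries, miR-29b-3p between 12.9% and 18.2% and miR-29c-3p between 3.51% and 5.27%. These shares do not depend on scaling between libraries, but they do depend on how reads of the guide arms were told apart. The ratio of miR-29c-3p to miR-29a-3p, which sets the chromosome 1 cluster against the chromosome 6 cluster, was 0.0559 ± 0.0119 (SD, n = 3) in NC and 0.0555 ± 0.00378 (SD, n = 3) in MAFLD livers. The ratio of miR-29b-3p to miR-29a-3p was 0.232, 0.221 and 0.232 in NC livers and 0.157, 0.225 and 0.175 in MAFLD livers. MAFLD replicates 1 and 3 were below all NC livers, and MAFLD replicate 2 lay within their range.

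None of the passenger arms tested was past either rule in the comparison of all 6 libraries. MiR-29c-5p made up between 77.9% and 91.0% of the passenger reads. Levels of mmu-miR-29c-5p were 29.8, 38.9 and 31.4 CPM in the NC and 25.1, 34.8 and 24.8 CPM in the MAFLD livers, so the groups overlapped. Its log2 fold change was −0.24 (95% interval −1.15 to 0.67, limma adjusted p = 0.791), and with median-ratio scaling it was −0.69. With NC replicate 3 left out as well it was −0.97 and past the looser rule as lower, but not past the adjusted p (limma, adjusted p = 0.112). Mmu-miR-29a-5p was read 12, 6 and 4 times in NC and 11, 26 and 8 times in MAFLD livers, which is 4.71, 3.82 and 2.99 CPM against 4.13, 5.55 and 5.21 CPM. The log2 fold change of 0.31 (95% interval −0.78 to 1.40, limma adjusted p = 0.777) was smaller than its error, and it turned to −0.087 with median-ratio scaling.

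Both passenger arms of miR-29b were at the limit of the depth. MiR-29b-1-5p had 0 reads in the NC livers, which allows up to 1.18, 1.91 and 2.24 CPM, and 4, 3 and 1 reads in the MAFLD livers. Its groups did not overlap, but with a mean of 0.465 CPM it was tested only with no filter on low values (limma adjusted p = 0.644). The 15.2% of miRNAs higher without overlap is a share of the 501 with a mean of at least 1 CPM, which leave this arm out. No such share was counted for miRNAs this scarce. NC libraries had a read for 752, 697 and 801 miRNAs and MAFLD libraries for 911, 901 and 921. A difference in this arm was not detectable at this depth. MiR-29b-2-5p had 1, 0 and 5 reads in NC livers and, library by library, the same 4, 3 and 1 reads as miR-29b-1-5p in MAFLD livers, with 14 reads in all. These numbers are too small to say which cluster the miR-29b-3p reads came from. Whether the same reads were counted under both passenger names in MAFLD livers was not tested.

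In miR-29c the balance between the arms could be read with more depth. In NC replicates 1 and 2 its arms were read almost equally, with 78 reads of the guide and 76 of the passenger arm in the first and 67 and 61 in the second. The guide arm made up 50.6% of the reads of both arms in NC replicate 1 (95% Wilson interval 42.8 to 58.4), 52.3% in NC replicate 2 (43.7 to 60.8) and 78.4% in NC replicate 3 (72.0 to 83.6). It made up 83.3% in MAFLD replicate 1 (79.4 to 86.7), 70.3% in MAFLD replicate 2 (66.4 to 74.0) and 80.3% in MAFLD replicate 3 (74.1 to 85.3). NC replicate 3 again lay among the MAFLD livers, so the groups overlapped, and the intervals of NC replicates 1 and 2 did not reach those of the other 4 libraries. The intervals cover counting error only, since reads without molecular identifiers are not independent molecules. They also leave out wrong assignment of reads. MiR-29a-3p, which differs from miR-29c-3p by 1 base, had 20879 reads over all libraries against 1173 of miR-29c-3p. Reads of miR-29a-3p assigned to miR-29c-3p would raise this guide share, which was not tested. In miR-29a the guide arm was at 99.3% or more of the reads in every library.

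**Figure D4:**
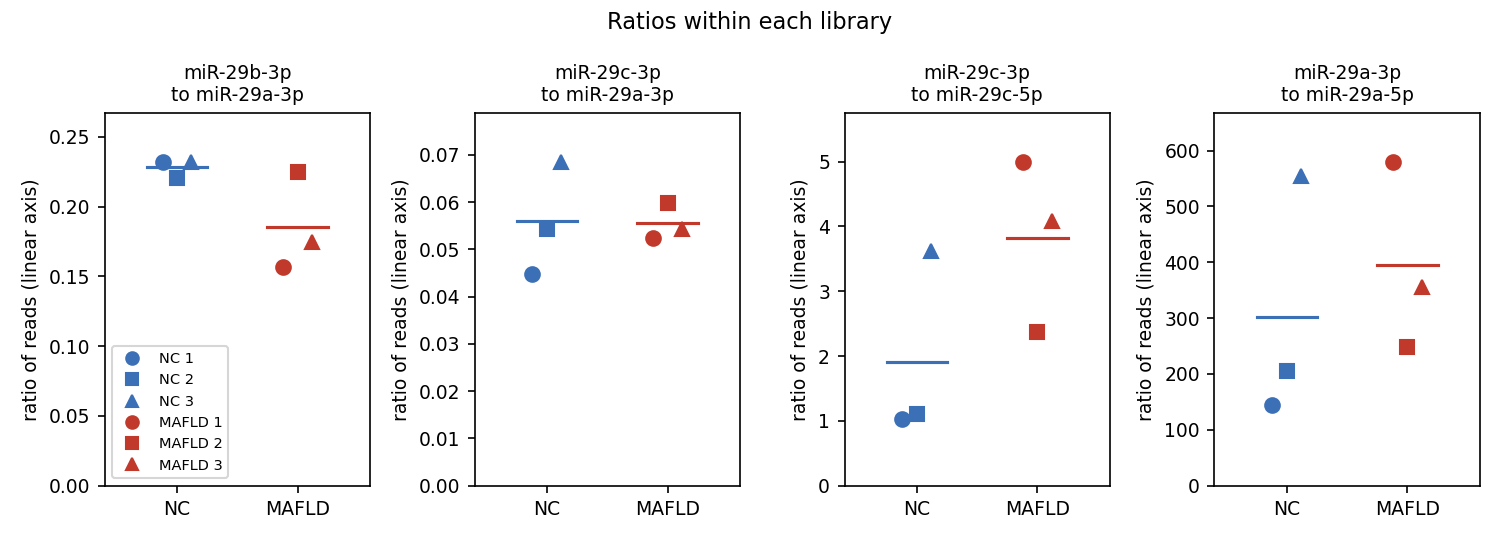
Ratios of miR-29 arms within each library (linear axes from 0), NC in blue and MAFLD in red, with symbols by replicate number and bars at the group means. The ratio of miR-29c-3p to miR-29a-3p is at 0.0559 and 0.0555 in the group means, and that of miR-29c-3p to miR-29c-5p is at 1.03 and 1.10 in NC replicates 1 and 2 and between 2.37 and 5.00 in the other libraries.

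As log2 ratios of the 3p to the 5p arm, the difference between MAFLD and NC livers was 1.16 for miR-29c with 1 CPM added to each arm. This was in position 3 of the 39 hairpins with both arms at a mean of at least 10 CPM, whose median difference was −0.021. The 3p arm is the guide in miR-29c but not in all of these hairpins. In miR-122, for example, the 3p arm had a mean of 253 CPM and the 5p arm 62537 CPM. Groups that did not overlap were seen in 9 of these 39 hairpins (23.1%), and miR-29c was not among them. With nothing added the difference for miR-29c was 1.19, and with 1 library left out it ran from 0.87 (without NC replicate 1) to 1.78 (without NC replicate 3), falling below 1.19 in 4 of 6 cases. The ratio of the passenger arms miR-29c-5p to miR-29a-5p was 6.33, 10.2 and 10.5 in NC and 6.09, 6.27 and 4.75 in MAFLD livers. Its groups did not overlap, but the 4 to 26 reads of miR-29a-5p leave it uncertain. The groups of the other miR-29 ratios given here overlapped, and no share over pairs of other hairpins was counted.

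In order of level the arms were miR-29a-3p, miR-29b-3p, miR-29c-3p, miR-29c-5p and miR-29a-5p, followed by both passenger arms of miR-29b. All are between 22 and 25 nt long, so CPM was compared between them without a correction for length. This order held in each of the 6 libraries as far as miR-29a-5p, but miR-29c-3p and miR-29c-5p did not differ beyond counting error in NC replicates 1 and 2. MiR-29a-3p was more abundant than miR-29c-3p in all libraries, and miR-29a-5p was less abundant than miR-29c-5p in all of them.

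Other miRNAs followed the guide arms closely over the 6 libraries. Among 103 miRNAs outside the family with a mean of at least 100 CPM, those with the highest Pearson correlation of log2(CPM + 1) with miR-29a-3p were miR-152-3p (r = 0.996), miR-191-5p (0.996) and miR-25-3p (0.996). For miR-29b-3p they were miR-30b-5p (r = 0.985), miR-24-3p (0.983) and miR-30a-5p (0.979), and for miR-29c-3p they were miR-30a-5p (0.998), miR-24-3p (0.998) and miR-199a-5p (0.997). The guide arms correlated with each other at 0.954 to 0.988. These correlations are descriptions over 6 points that share their library totals. The same arms correlated with miR-148a-3p at −0.958 to −0.985.

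Of 24 other miRNAs linked to liver fibrosis, 9 were past the looser rule as higher in MAFLD livers and 0 as lower, against 13.4% and 4.59% of all 501 miRNAs. By the adjusted p 0 passed with limma and with edgeR (each called 1 of all 501 miRNAs), 3 with DESeq2 (28 of 501), and 13 with limma without NC replicate 3 (114 of 501). Their median log2 fold change was 0.75, that of all miRNAs 0.43. With median-ratio scaling 6 were higher and 1 was lower, with a median of 0.28, where 5.39% of all miRNAs were higher. Without MAFLD replicate 1 the number higher was 3 (4.19% of all miRNAs), without NC replicate 1 it was 4 (5.19%), without NC replicate 2 it was 5 (5.39%), and without NC replicate 3 it was 14, where 29.1% of all miRNAs were higher. The list held both miRNAs known to promote fibrosis and miRNAs known to restrain it, and the 9 include both kinds. MiR-34a-5p, which p53 induces and which is known to promote liver injury, was at 38.7 CPM in NC and 105 CPM in MAFLD livers on average (log2 fold change 1.43). MiR-16-5p, which restrains proliferation, had a log2 fold change of 1.19, miR-15b-5p of its seed family 1.35 and miR-30c-5p 1.07. MiR-214-3p of stellate cells had 1.29, miR-199a-3p 0.87 (its reads equalled those of miR-199b-3p), the inflammatory miR-155-5p 1.53, miR-19b-3p 1.04 and miR-27b-3p 0.75. These values kept their sign with every scaling used here, but after quantile normalization miR-27b-3p was at 0.026, miR-199a-3p at 0.11, miR-30c-5p at 0.38, miR-16-5p at 0.57 and miR-19b-3p at 0.57. MiR-21a-5p, the best known miRNA of fibrosis, had −0.28 and did not pass.

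Markers of other cell types stood beside these values as follows. The 10 arms of stellate and other mesenchymal cells summed to between 12939 and 30893 CPM in NC livers and to between 20479 and 27851 CPM in MAFLD livers, so they overlapped. MiR-143-3p made up most of these sums, with means of 21193 CPM in NC and 20848 CPM in MAFLD livers (log2 fold change 0.049). Of the 10, 4 were past the looser rule, all higher, against 13.4% higher and 4.59% lower of all 501 miRNAs. The 4 include miR-199a-3p and miR-199b-3p, whose values were equal in every library, so the same values are counted in both. The endothelial miR-126a arms summed to between 4710 and 6587 CPM in NC and to between 7659 and 10155 CPM in MAFLD livers, and both were past the looser rule. Immune miRNAs summed to between 1616 and 3061 CPM in NC and to between 2223 and 3314 CPM in MAFLD livers. MiR-146a-5p made up most of these sums, with means of 2213 CPM in NC and 2339 CPM in MAFLD livers (log2 fold change 0.093). All 6 immune miRNAs had a log2 fold change above 0, as did 357 of all 501 miRNAs. Erythroid miRNAs summed to between 662 and 1348 CPM in NC and to between 490 and 1157 CPM in MAFLD livers. Past the looser rule were 1 of 6 immune, 0 of 5 erythroid and 1 of 5 hepatocyte miRNAs. None of the markers on these lists was at 0 in every library. The part of these cells in the level of miR-29 was not tested.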

How the data were processed

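Liver small RNA of 3 NC and 3 MAFLD mice was measured. According to the sample descriptions, RNA was pretreated to remove end and base modifications, inserts of 14 to 40 nt were selected and 50 cycles were read. The submitters' processing notes name FastQC, cutadapt, Bowtie, edgeR and GRCm38, with no role. The authors deposited CPM values per mature miRNA, which sum to the same total in each library. Columns were assigned by name. Dividing by the smallest value above 0 gave whole reads for 100% of values (within 0.02).

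Differences were fitted on log2(CPM + 1) with limma (version 3.58.1, R 4.3.3; eBayes with a trend) over all 501 miRNAs whose mean reached 1 CPM, with Benjamini-Hochberg adjustment. Fold changes on this scale understate those of scarce miRNAs. No label ties a library to a separate mouse, so p-values measure only the spread between these samples, which may be technical. Exact tests used scipy 1.17.1. Count tests on recovered reads (edgeR 4.0.16, DESeq2 1.42.0) and the other alternatives are given below. The fits were tested on simulated data. The named miRNAs are the 7 arms, the 3 miRNAs most like each guide arm, and members of the fixed lists past the looser rule. miR-21a-5p and miR-148a-3p were added after their values were seen. Members and lists were chosen with earlier results of these data known. No deposited column was left unused.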

Additional observations from a re-analysis of the deposited data

How the results depend on the processing

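The guide arms were higher in MAFLD livers in all 18 alternatives, with log2 fold changes from 0.35 to 1.32 for miR-29a-3p, 0.13 to 1.01 for miR-29b-3p and 0.41 to 1.46 for miR-29c-3p. The alternatives reuse the same libraries, so they are not independent checks of the direction. Fold changes cannot move with the filters on low values, in limma without the trend or, in this balanced design, with the replicate block. Over all 18, adjusted p ran from 0.00609 to 0.651, 0.0174 to 0.851 and 0.0119 to 0.695, and each arm passed 0.05 in 1 of them, without NC replicate 3. Leaving out 1 library gave 0.68 to 1.32, 0.37 to 1.01 and 0.53 to 1.46. The fold changes of miR-29a-3p were 0.47 with edgeR and 0.45 with DESeq2 on the recovered reads. MiR-29c-5p stayed below 0 in all 18. MiR-29a-5p turned negative under median-ratio scaling (−0.087), with edgeR (−0.12), with DESeq2 (−0.18) and under median-ratio scaling without NC replicate 3 (−0.41). MiR-29b-2-5p (0.013, 14 reads in all) turned negative at a pseudocount of 5 (−0.062), under median-ratio scaling (−0.086), after quantile normalization (−0.24), with edgeR (−0.67) and with DESeq2 (−0.67). With 1 library left out it lay between −0.44 and 0.68. Neither passed the mean of 10 CPM, so they have no value there. The cause of these changes was not tested.

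The 1 miRNA past the adjusted p became 11 with no filter, 2 with median-ratio scaling, 2 without miR-148a-3p in the totals, 28 with DESeq2, 36 under median-ratio scaling without NC replicate 3, 3 when the threshold was 0.1, and 0 without the trend, where 74 had an unadjusted p under 0.05. Leaving out 1 library gave 0 to 114 (40 to 177 at an unadjusted p under 0.05), and edgeR called 1. The looser rule took 59 miRNAs at a mean of 10 CPM and 40 to 172 with 1 library left out, in place of 90. In place of 67 higher and 23 lower it took 27 and 44 under median-ratio scaling, 33 and 38 after quantile normalization, 27 and 49 with edgeR, 22 and 51 with DESeq2, and 41 and 38 when miR-148a-3p was taken out of the totals. A fit with the replicate block called 5 miRNAs by the adjusted p, where miR-29a-3p had 0.241, miR-29b-3p 0.434 and miR-29c-3p 0.309. Deviations of same-numbered livers correlated at 0.012, −0.020 and −0.046, and 0 of 3 NC libraries were closest to their own number. These values show no pairing by number, but with 3 livers per group they cannot exclude a shared cage or litter. With 7 letters matching the seed in place of 8, 15 of 17 collagens held a site, as did 13.1% of all genes. Depth limits both passenger arms of miR-29b.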
